A study of Mus musculus and Homo sapiens with 9 samples.

Results

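The genes described here supply and control peptide presentation on major histocompatibility complex (MHC) class I, in a human and a mouse RNA-seq table of cells depleted of IRF2BP2 or lacking it. IRF2BP2 is a transcriptional co-repressor first known as a partner of the interferon regulatory factor IRF2. They were taken by symbol: HLA-B, HLA-C, HLA-E, B2M, TAP1, TAP2 and NLRC5 in the human table, and H2-K1, H2-D1, B2m, Tap1, Tap2 and Nlrc5 in the mouse table. These were 7 of 15819 human genes and 6 of 15350 mouse genes that passed the filter on low counts, and no member was lost to that filter.

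The human libraries came from J.gamma1, a T-cell acute lymphoblastic leukemia line derived from Jurkat, transduced with lentivirus carrying a non-targeting shRNA (sh-NC, n = 2) or an shRNA against IRF2BP2 (sh-IRF2BP2, n = 2) and kept under puromycin. Which hairpin against IRF2BP2 was sequenced is not named in the sources used here. The mouse libraries came from CD3+ T cells sorted with magnetic beads from spleen, of knockout mice (Vav-iCre+/-;Irf2bp2 fl/fl, n = 2) and of controls (n = 3), which the labels call Wild type and the paper calls Vav-iCre-/-;Irf2bp2 fl/fl. Vav-iCre acts throughout the blood lineage, so the T cells of the knockout developed from precursors that had already lost the gene and among other blood cells that lacked it. The study gives an age for mice of these genotypes in its flow cytometry but does not repeat it for the sequenced mice, and whether the J.gamma1 replicates were separate cultures is not given in the sources used here, so the p-values measure the spread between the libraries as deposited.

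MHC class I molecules show peptides from inside the cell to CD8+ T cells and natural killer cells. Each molecule pairs a polymorphic heavy chain with the invariant light chain beta-2-microglobulin. TAP1 and TAP2 form the transporter that pumps peptides into the endoplasmic reticulum, and without it most heavy chains stay unloaded. NLRC5 is the transactivator of class I promoters, where it works with factors bound to a shared enhanceosome, and interferon raises most of these genes through IRF1 and related factors. HLA-B and HLA-C, and H2-K1 and H2-D1 in the mouse, are classical heavy chains, whereas HLA-E is a nonclassical one read by NKG2A receptors.

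Promoter sequences are shown for TAP2 (passed the human test), TAP1 and B2M (did not pass), HLA-B as a heavy chain, and 2 mouse counterparts. Each runs 5′ to 3′ on the gene's strand, from 250 bases before the annotated start to 50 after it. Human windows were read from the hg38 genome at GENCODE canonical starts, and mouse windows are RefSeq's on GRCm38.p6, where H2-K1 has 2 listed starts and the upstream one is shown. Capitals mark matches on either strand to any of 4 motifs: an interferon regulatory factor core (GAAANNGAA), a kappaB site as in class I enhancer A (GGGGATTCC), a CRE core (TGACG) and a CCAAT box written on its reverse strand (ATTGG).
TAP2 promoter, hg38 chr6:32838690-32838989, minus strand: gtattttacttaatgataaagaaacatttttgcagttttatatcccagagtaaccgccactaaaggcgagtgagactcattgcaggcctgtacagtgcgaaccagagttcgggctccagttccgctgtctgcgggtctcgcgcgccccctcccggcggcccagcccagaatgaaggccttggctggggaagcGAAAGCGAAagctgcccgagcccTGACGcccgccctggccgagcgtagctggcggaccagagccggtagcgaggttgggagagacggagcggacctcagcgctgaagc
TAP1 promoter, hg38 chr6:32853655-32853954, minus strand: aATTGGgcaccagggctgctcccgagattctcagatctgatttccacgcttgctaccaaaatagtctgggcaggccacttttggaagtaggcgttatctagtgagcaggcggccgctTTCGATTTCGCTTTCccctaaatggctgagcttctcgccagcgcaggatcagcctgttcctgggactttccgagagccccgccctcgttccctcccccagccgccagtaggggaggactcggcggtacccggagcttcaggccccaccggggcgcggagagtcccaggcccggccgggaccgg
B2M promoter, hg38 chr15:44711267-44711566, plus strand: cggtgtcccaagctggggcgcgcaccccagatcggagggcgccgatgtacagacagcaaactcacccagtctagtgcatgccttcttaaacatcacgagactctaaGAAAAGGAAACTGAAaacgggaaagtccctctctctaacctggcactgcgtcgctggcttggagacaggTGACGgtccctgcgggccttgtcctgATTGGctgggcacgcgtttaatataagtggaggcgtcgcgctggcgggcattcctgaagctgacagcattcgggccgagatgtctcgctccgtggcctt
HLA-B promoter, hg38 chr6:31357130-31357429, minus strand: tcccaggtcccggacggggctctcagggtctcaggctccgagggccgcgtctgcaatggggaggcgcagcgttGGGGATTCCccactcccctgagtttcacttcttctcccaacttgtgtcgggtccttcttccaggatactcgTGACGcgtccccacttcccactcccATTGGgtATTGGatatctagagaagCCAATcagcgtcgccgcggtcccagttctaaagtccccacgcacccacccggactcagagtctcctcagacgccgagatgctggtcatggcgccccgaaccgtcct
H2-K1 promoter, GRCm38.p6 chr17:34000298-34000597, minus strand: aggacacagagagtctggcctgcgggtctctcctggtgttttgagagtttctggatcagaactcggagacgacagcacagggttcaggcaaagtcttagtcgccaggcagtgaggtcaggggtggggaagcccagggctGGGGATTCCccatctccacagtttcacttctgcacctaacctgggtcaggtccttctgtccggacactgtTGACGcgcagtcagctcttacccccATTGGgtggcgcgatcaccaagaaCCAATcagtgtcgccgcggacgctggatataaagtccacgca
B2m promoter, GRCm38.p6 chr2:122147437-122147736, plus strand: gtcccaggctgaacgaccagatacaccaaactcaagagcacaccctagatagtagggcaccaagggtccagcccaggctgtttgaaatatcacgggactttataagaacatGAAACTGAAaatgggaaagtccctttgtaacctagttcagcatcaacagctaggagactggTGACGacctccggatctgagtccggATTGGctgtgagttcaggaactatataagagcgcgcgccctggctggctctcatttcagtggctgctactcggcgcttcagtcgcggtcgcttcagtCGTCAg

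The interferon regulatory factor core matched in 4 of the 7 human promoters, those of B2M, TAP1, TAP2 and NLRC5, and in 7.04% of 20033 human promoters. In B2M and in TAP1 there were 2 matches that overlapped each other, and no match to one motif overlapped a match to another. The 3 heavy chain promoters held no match to this core, which says only that these letters are not in the window. The windows of HLA-B and HLA-C, and of H2-K1 and H2-D1 in the mouse, held tttcacttc. On the other strand this has GAA before GAAA, an order that the search did not cover. The split of the promoters by this core thus depends on the letters chosen, and other forms of the site were not searched. The CRE core was found in 5 of the 7 promoters (29.3% of all) and the CCAAT box in 5 of 7 (36.1% of all), in both cases including all 3 heavy chains. The kappaB letters matched in HLA-B alone (0.369% of all). Of the mouse members, H2-K1, H2-D1, B2m and Tap1 were found in the promoter table. H2-K1 and H2-D1 held the kappaB letters (0.25% of 32851 mouse promoters) and B2m held the interferon regulatory factor core (8.56%), while the CRE core (20.8%) and the CCAAT box (37.4%) matched in all 4.

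**Figure D1:**
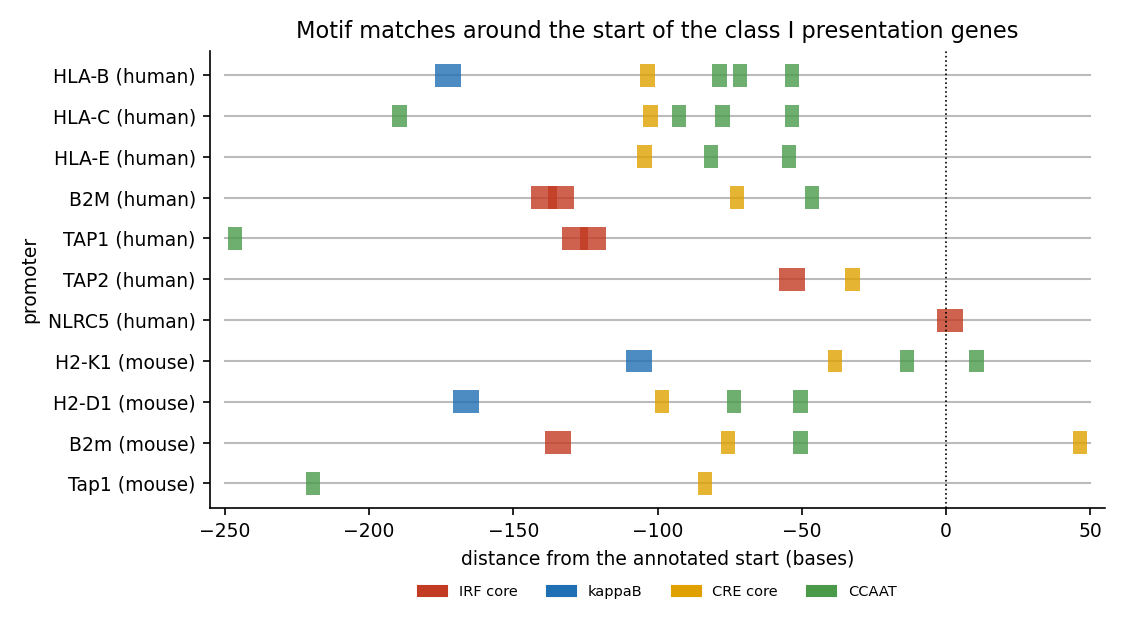
Motif matches in the promoters of the class I presentation genes, by distance in bases from the annotated start (dotted line), with 1 grey line per promoter and coloured boxes for the 4 motifs on either strand. The interferon regulatory factor core lies in B2M, TAP1, TAP2 and NLRC5 of the human set, and the CRE core and CCAAT boxes line up in HLA-B, HLA-C and HLA-E.

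The total counts lay between 26648204 and 31120236 in the human libraries and between 16668577 and 37177523 in the mouse libraries, with control replicate 3 the shallowest. IRF2BP2 itself was at 204 and 199 CPM (counts scaled to the TMM-adjusted size of each library) in sh-NC and at 79.0 and 93.8 CPM in sh-IRF2BP2. Mouse Irf2bp2 had 4145, 4594 and 1915 counts in the controls and 0 in both knockout libraries. The T cell label of J.gamma1 was met by its markers, with all 13 T cell markers detected in every library (summed level 1849 to 2286 CPM). Of these markers 2 passed as higher and 3 as lower, beside 5.83% and 5.32% of all genes tested. The summed level of 5 myeloid markers stayed between 0.0772 and 0.814 CPM, with LYZ and CSF1R at 0, with none of them tested. That of 6 erythroid markers was 0.425 and 0.870 CPM in sh-NC and 2.095 and 1.87 CPM in sh-IRF2BP2, with 1 of 2 tested markers passing as higher and with HBB and ALAS2 among those at 0. Their part in the class I values was not tested. The 5 B cell markers summed to 50.01 and 65.04 CPM in sh-NC and to 15.5 and 18.1 CPM in sh-IRF2BP2, nearly all of it CD79A, with 1 of 2 tested markers passing as lower and MS4A1 at 0.

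In J.gamma1 cells, TAP2 rose after IRF2BP2 knockdown, and it was the 1 of 7 class I genes that passed the test (an adjusted p under 0.05 in edgeR's quasi-likelihood fit of the whole table, with p-values adjusted after Benjamini and Hochberg). Of all genes tested, 5.83% passed as higher and 5.32% as lower, and the count of 1 in 7 is to be read beside these shares. The fold changes of all 7 were above 0, as were 50.6% of those over all genes tested. The median log2 fold change of the 7 was 0.18 against 0.01 over all genes tested. Those of HLA-B, HLA-C and HLA-E fell below 0 in some of the alternatives given below. In 4 of the 7 both knockdown libraries lay above both sh-NC libraries, a pattern that 29.6% of all genes tested showed, while 28.7% showed the opposite one and no member did. These 4 were B2M, TAP1, TAP2 and NLRC5, and the heavy chains HLA-B, HLA-C and HLA-E overlapped between the groups.

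TAP2 (ENSG00000204267, chr6:32821833-32838739, minus strand) was measured at 8.96 and 4.77 CPM with sh-NC, against 16.1 and 14.8 CPM after knockdown. Both knockdown values lay above both controls, and the controls differed from each other more than the knockdown libraries did. The log2 fold change was 1.17 ± 0.29 (SE; 95% interval 0.50 to 1.85), with an adjusted p of 0.042 by edgeR. Over the alternatives tried, the adjusted p ran from 0.00026 to 0.13. Leaving out sh-NC replicate 1 gave a log2 fold change of 1.69, and leaving out the other control gave 0.78. The call was lost when sh-IRF2BP2 replicate 1 was left out (adjusted p = 0.087 by edgeR), when genes down to 1 count were tested (0.13) and when all rows of the table were tested (0.051). The counts behind these values were 148 to 469 per library.

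TAP1 (ENSG00000168394, chr6:32845209-32853816, minus strand), which encodes the other subunit of the transporter, had 3.48 and 6.38 CPM in sh-NC and 10.4 and 7.63 CPM in sh-IRF2BP2. The groups did not overlap. The log2 fold change was 0.86 ± 0.32 (SE; 95% interval 0.11 to 1.61) and did not pass the test, with an adjusted p of 0.13 by edgeR. Without sh-NC replicate 2 it passed, with a log2 fold change of 1.37 and an adjusted p of 0.012 by edgeR. Without sh-NC replicate 1 its log2 fold change was 0.49 (adjusted p = 0.29 by edgeR), and over all alternatives the adjusted p ran from 0.012 to 0.45. The 2 subunits did not vary together between the control libraries. sh-NC replicate 1 had the lower TAP1 and the higher TAP2 value, so that the ratio of their levels per length was 0.795 in that library and 2.74 in sh-NC replicate 2, against 1.32 and 1.06 in the knockdown libraries.

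B2M (ENSG00000166710, chr15:44711358-44718851, plus strand), the light chain, had 263 and 326 CPM in sh-NC and 339 and 381 CPM in sh-IRF2BP2. The lowest knockdown library was only slightly above the highest control. The log2 fold change was 0.29 ± 0.15 (SE; 95% interval -0.05 to 0.63), with an adjusted p of 0.24 by edgeR. Among the alternatives tried it passed only without sh-NC replicate 2, at a log2 fold change of 0.45 (adjusted p = 0.041 by edgeR). Without sh-NC replicate 1 the log2 fold change was 0.14 (adjusted p = 0.53 by edgeR), and its adjusted p ran from 0.041 to 0.68 over the alternatives.

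The transactivator NLRC5 (ENSG00000140853, chr16:56989485-57083531, plus strand) had 19.6 and 20.9 CPM in sh-NC and 23.5 and 21.9 CPM in sh-IRF2BP2. These groups stood apart by a small step. The log2 fold change was 0.16 ± 0.15 (SE; 95% interval -0.18 to 0.50), with an adjusted p of 0.51 by edgeR, and no alternative brought it past the threshold.

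The heavy chains were less separated. HLA-B (ENSG00000234745, chr6:31353872-31367067, minus strand) had 70.0 and 96.7 CPM in sh-NC and 89.0 and 100.2 CPM in sh-IRF2BP2, with a log2 fold change of 0.18 (95% interval -0.20 to 0.57; adjusted p = 0.52 by edgeR). HLA-C (ENSG00000204525, chr6:31268749-31272130, minus strand) had 98.3 and 117 CPM in sh-NC and 106 and 113 CPM in sh-IRF2BP2, so that both knockdown libraries fell between the controls. Its log2 fold change was 0.02 (95% interval -0.28 to 0.32; adjusted p = 0.93 by edgeR). HLA-E (ENSG00000204592, chr6:30489509-30494194, plus strand) had 10.8 and 13.2 CPM in sh-NC and 11.3 and 14.9 CPM in sh-IRF2BP2, with a log2 fold change of 0.13 (95% interval -0.37 to 0.62; adjusted p = 0.75 by edgeR). In all 3 the lower control was sh-NC replicate 1, and without it their log2 fold changes were below 0 (-0.04, -0.11 and -0.01). The intervals leave room for changes of either sign in each heavy chain.

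**Figure D2:**
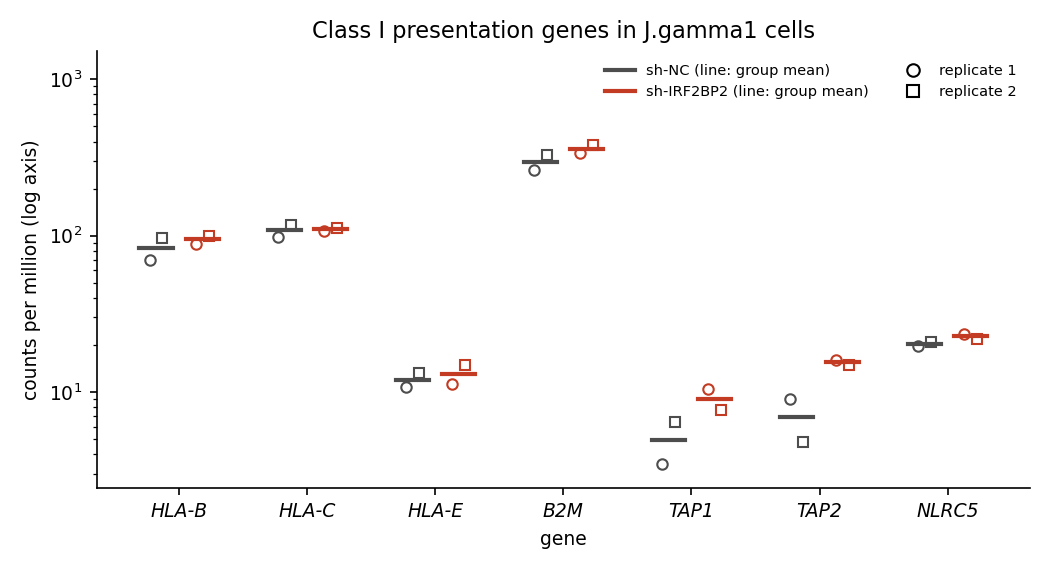
CPM of the 7 class I presentation genes in the 4 J.gamma1 libraries on a log axis, with a symbol per library and a line at each group mean. TAP2 is at 16.1 and 14.8 CPM in the knockdown libraries against 8.96 and 4.77 CPM in sh-NC, and the symbols of HLA-B, HLA-C and HLA-E overlap between the groups.

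Levels were compared between genes only per length, as counts per kilobase of the longest protein-coding transcript scaled so that the values of a library sum to the same total (TPM-like units). TMM factors were not applied to these levels. In sh-NC the order was B2M (727 ± 110, SD, n = 2), HLA-C (185 ± 23.2), HLA-B (73.1 ± 16.5), HLA-E (12.6 ± 1.73), NLRC5 (7.93 ± 0.35), TAP1 (4.71 ± 1.96) and TAP2 (3.20 ± 1.38). TAP1 and TAP2 overlapped between libraries, and the other neighbours in this order did not. In sh-IRF2BP2 the order was the same, with B2M at 924 ± 94.5, HLA-C at 195 ± 11.7, HLA-B at 86.2 ± 8.998, HLA-E at 14.3 ± 3.06, NLRC5 at 9.22 ± 0.26, TAP1 at 8.92 ± 1.74 and TAP2 at 7.48 ± 0.30 (SD, n = 2), and there TAP1 overlapped with both NLRC5 and TAP2. With merged exon lengths TAP1 came before NLRC5 after knockdown, at 8.14 against 7.87. The summed level of HLA-B and HLA-C divided by that of B2M came to 0.355 and 0.356 with sh-NC and to 0.311 and 0.299 after knockdown. Both knockdown ratios were lower than both controls, by 0.051 on average, and an exact two-sided permutation test gave p = 0.33, the smallest that 2 against 2 libraries allow.

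Reads of these genes are not assigned without doubt. HLA heavy chains share sequence with each other and are polymorphic, and TAP2 lies within a readthrough gene on the same strand whose own row held 1 to 7 counts per library, while TAP1 overlaps PSMB9 on the opposite strand (54 to 130 counts). The human table also held 8147 identifiers that are not in the annotation used here, and the annotated rows held 98.0% of the counts. Where in the genome these identifiers lie was not tested. For TUBB, a gene inside the MHC region that was chosen after the values were seen, 7 such rows matched its own counts within 10% in every library. Other genes of the region had matching rows as well, among them C6orf47 (6), DAXX (5), RPS18 (4) and TAPBP (1), while BRD2 and DDX39B, among others, had 0. No such row matched HLA-B, HLA-C, HLA-E, TAP1 or TAP2. A match this close finds only rows with nearly equal counts, so its absence does not show that reads of these genes were not split. Whether the authors' reference carried alternate copies of the MHC region is not given in the sources used here. With such copies the levels of HLA-B, HLA-C, HLA-E, TAP1 and TAP2 could be too low beside B2M and NLRC5, which lie on other chromosomes. Their fold changes, that of TAP2 included, would then rest on a part of the reads, and the effect of this was not tested.

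Of 12 genes that cut, carry and load peptides for class I, 1 passed as higher, 1 as lower and 10 did not pass in J.gamma1 cells, beside 5.83% and 5.32% of all genes tested. ERAP1, the aminopeptidase that trims peptides in the endoplasmic reticulum, rose from 115 and 100 CPM in sh-NC to 158 and 167 CPM in sh-IRF2BP2 (log2 fold change 0.60, adjusted p = 0.023 by edgeR). CALR, the chaperone calreticulin of the loading complex and of the endoplasmic reticulum at large, fell from 1692 and 1704 CPM to 1025 and 875 CPM (log2 fold change -0.84, adjusted p = 0.012 by edgeR). TAPBP, the bridge between TAP and the heavy chain, was at 13.8 and 15.1 CPM in sh-NC and at 20.4 CPM in both knockdown libraries (log2 fold change 0.50, adjusted p = 0.084 by edgeR). The immunoproteasome subunits did not pass. PSMB8 had a log2 fold change of 0.22 (adjusted p = 0.55 by edgeR), and PSMB9, which shares a bidirectional promoter with TAP1, had 5.02 and 2.77 CPM in sh-NC and 1.85 and 2.41 CPM in sh-IRF2BP2 (log2 fold change -0.86, adjusted p = 0.18 by edgeR). PSMB9 and TAP1 thus had fold changes of opposite sign at low counts, neither past the threshold.

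Among 6 tested heavy chains outside the member set, 2 passed as higher and none as lower, beside 5.83% and 5.32% of all genes tested. MICB, a stress-induced ligand of the receptor NKG2D that binds no beta-2-microglobulin, was at 4.40 and 5.61 CPM in sh-NC and rose to 11.02 and 12.1 CPM (log2 fold change 1.20, adjusted p = 0.016 by edgeR). MR1, which presents vitamin B metabolites to MAIT cells, was at 32.1 and 30.9 CPM in sh-NC and rose to 46.3 and 55.5 CPM (log2 fold change 0.69, adjusted p = 0.020 by edgeR).

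Of 13 transcription factors that act on class I promoters, 3 passed as higher, 1 as lower and 9 did not pass. Over all genes tested, 5.83% passed as higher and 5.32% as lower. IRF1 rose from 54.8 and 66.3 CPM in sh-NC to 88.4 and 83.1 CPM (log2 fold change 0.50, adjusted p = 0.049 by edgeR), and its adjusted p ran from 0.0054 to 0.26 over the alternatives, with the call lost in 6 of 12 of them. CREB1, which binds the CRE core, rose (log2 fold change 0.63, adjusted p = 0.021 by edgeR), and its relative ATF1 fell (log2 fold change -0.78, adjusted p = 0.014 by edgeR). RFX5, a subunit of the enhanceosome, was at 138 and 130 CPM in sh-NC and at 180 and 176 CPM in sh-IRF2BP2 (log2 fold change 0.42, adjusted p = 0.058 by edgeR), and it passed in 3 of 12 alternatives, with DESeq2 (adjusted p = 0.017), with a replicate block (0.018) and without sh-NC replicate 1 (0.025). IRF2 itself had a log2 fold change of 0.23 (adjusted p = 0.29 by edgeR).

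In a list of 9 interferon signalling genes, which are receptor chains, their kinases and the factors STAT2 and IRF9, 3 passed as higher and none as lower. IRF9, a DNA-binding factor of the type I interferon response, rose from 2.05 and 2.74 CPM in sh-NC to 10.2 and 7.40 CPM (log2 fold change 1.87, adjusted p = 0.0078 by edgeR). IFNAR2, a chain of the type I interferon receptor (log2 fold change 0.73, adjusted p = 0.0094 by edgeR), and the kinase JAK1 (0.61, adjusted p = 0.017 by edgeR) rose as well. Among 18 tested interferon-induced genes outside the class I pathway, 4 passed as higher and 2 as lower. The guanylate-binding protein gene GBP1 rose from 21.3 and 20.2 CPM to 58.6 and 61.9 CPM (log2 fold change 1.54, adjusted p = 0.0011 by edgeR), followed by the apoptosis factor XAF1 (1.13, adjusted p = 0.0030), the antiviral gene IFIT2 (1.03, adjusted p = 0.024) and GBP3 (0.78, adjusted p = 0.028). The 2 that fell were OAS1, a sensor of double-stranded RNA (log2 fold change -1.003, adjusted p = 0.0499 by edgeR), and IFI6 (-0.92, adjusted p = 0.025). The call of OAS1 was lost in 6 of 12 alternatives, with an adjusted p of 0.013 to 0.22 over them. Across these 5 lists, 13 of 58 tested genes (22.4%) passed as higher and 4 (6.9%) as lower, with a median log2 fold change of 0.34. Of all genes tested, 5.83% passed as higher and 5.32% as lower. The lists were chosen with earlier results of these data known, so the difference from all genes is a description and no independent support. Without sh-IRF2BP2 replicate 1 the list counts were 7 and 2, while those over all genes went from 923 and 841 to 418 and 419. Without sh-IRF2BP2 replicate 2 the list counts were 6 and 1, and 518 and 516 of all genes passed.

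**Figure D3:**
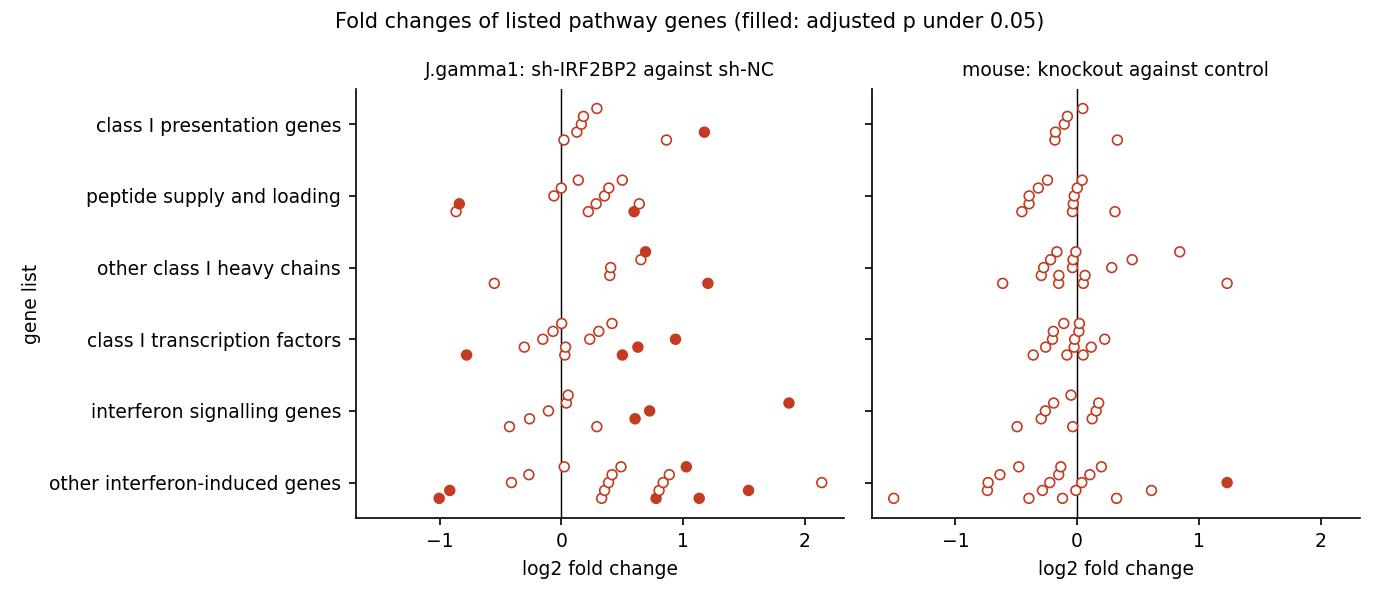
Log2 fold changes of the class I presentation genes and of 5 lists of related genes in J.gamma1 cells (left) and mouse CD3+ T cells (right), with 1 point per gene and filled points for an adjusted p under 0.05. In J.gamma1 cells 13 genes of the 5 lists passed as higher and 4 as lower, and in the mouse Gbp3 alone passed.

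The class II genes gave a contrast of level. Their summed level over 10 genes was 1.55 to 2.51 CPM over the J.gamma1 libraries with HLA-DRA and HLA-DQA1 at 0, 3 of the 10 passed the filter on low counts and 0 passed the test, with 0 of the 3 at an unadjusted p under 0.05 by edgeR.

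Of 797 tested human genes with a promoter match to the interferon regulatory factor core, 6.4% passed as higher and 32.6% had groups apart with the knockdown above, against 6.93% and 30.7% of the 12725 tested genes with a promoter sequence. The 4 members with a match, all with groups apart, are to be read beside these shares. Members without a match may hold other forms of the site, which were not searched.

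The human genes whose profile over the 4 libraries lay nearest to the mean centred profile of the 7 members were GNAI2, PPP2R2D and DCP1B, at root mean square distances of 0.0046, 0.017 and 0.024 on the log2 scale among 9749 candidates with a mean of at least 10 CPM. The mean profile itself ran from -0.31 in its lowest library to 0.22 in its highest. With 4 libraries many genes lie close to any profile.

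In mouse splenic CD3+ T cells no class I gene passed the test, 0 of 6, where 2.68% of all genes tested passed as higher and 0.15% as lower. None of the 6 had an unadjusted p under 0.05 by edgeR, and DESeq2 called 0 of 6 as well. The largest fold change was that of Nlrc5 and was above 0, the classical heavy chains and B2m were slightly below 0, and the transporter subunits were closest to 0. The median log2 fold change of the 6 was -0.09 against -0.02 over all genes tested. The intervals given with each gene bound the changes that these libraries could have missed.

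Markers of other cells were detected in the sorted mouse fraction, and class I genes are active in most nucleated cells, so fewer cells of a type and less RNA per cell cannot be told apart here. All 13 T cell markers had log2 fold changes below 0 (summed level 6413 to 8152 CPM in the controls, 4893 and 5151 CPM in the knockout), and 0 passed the test by edgeR, with 9 at an unadjusted p under 0.05. All 7 erythroid markers had fold changes above 0, with 2 passing, and their summed level was 579 to 2237 CPM in the controls and 4254 and 6032 CPM in the knockout. The summed level of 5 plasma cell markers was 397 to 1136 CPM in the controls and 1119 and 1474 CPM in the knockout, with all 5 fold changes above 0, 1 passing as higher and 3 at an unadjusted p under 0.05 by edgeR. In the remaining lists 0 passed by edgeR. The summed level of 5 B cell markers was 32.4 to 238 CPM and 97.0 and 34.7 CPM, that of 7 myeloid markers 41.4 to 352 CPM and 119 and 73.8 CPM, that of 4 natural killer cell markers 21.6 to 38.0 CPM and 21.5 and 53.4 CPM, and that of 7 class II genes 160 to 1054 CPM and 1004 and 498 CPM, in the controls and the knockout in turn. All 5 B cell and all 7 myeloid markers and 3 of the 4 natural killer cell markers had fold changes below 0, with 3 natural killer cell markers at an unadjusted p under 0.05 by edgeR and none of the B cell, myeloid or class II genes. No marker in these lists was at 0 in any mouse library. The part of these cells in the class I values was not tested. Over all genes, 412 passed as higher and 23 as lower, and these counts were 6 and 1 without control replicate 1, 47 and 3 without knockout replicate 1 and 9 and 1 without knockout replicate 2.

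Nlrc5 (ENSMUSG00000074151, mm10 chr8:94434356-94527272, plus strand) had 349, 258 and 433 CPM in the control libraries and 434 and 438 CPM in the knockout libraries. Both knockout libraries lay above all controls, though control replicate 3 nearly reached them, and 18.2% of all genes tested were apart in this direction. The log2 fold change was 0.33 ± 0.22 (SE; 95% interval -0.19 to 0.85), with an adjusted p of 0.53 by edgeR and of 0.14 to 0.92 over the alternatives. The log2 fold change was 0.18 without control replicate 2 and 0.52 without control replicate 3.

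H2-K1 (ENSMUSG00000061232, mm10 chr17:33996017-34000347, minus strand) had 3784, 4122 and 3704 CPM in the controls and 3297 and 3546 CPM in the knockout. Both knockout libraries lay below the controls, as in 17.8% of all genes tested. On the scale per length, which carries no TMM factors, the groups overlapped. The values there were 5341, 5429 and 5471 in the controls and 5265 and 5513 in the knockout. The log2 fold change of H2-K1 on the CPM scale was -0.18 (95% interval -0.50 to 0.15; adjusted p = 0.60 by edgeR). H2-D1 (ENSMUSG00000073411, mm10 chr17:35262730-35267499, plus strand) had 2389, 2756 and 2225 CPM in the controls and 2159 and 2408 CPM in the knockout, with a log2 fold change of -0.11 (95% interval -0.47 to 0.26; adjusted p = 0.80 by edgeR) that was 0.0018 without control replicate 2.

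B2m (ENSMUSG00000060802, mm10 chr2:122147686-122153083, plus strand) had 2412, 3086 and 2172 CPM in the controls and 2327 and 2180 CPM in the knockout. The knockout libraries fell within the range of the controls, and the log2 fold change was -0.18 (95% interval -0.62 to 0.26; adjusted p = 0.70 by edgeR), or -0.0079 without control replicate 2 and -0.29 without control replicate 3. Tap1 (ENSMUSG00000037321, mm10 chr17:34187553-34197225, plus strand) had 385, 355 and 374 CPM in the controls and 384 and 383 CPM in knockout cells (log2 fold change 0.05, 95% interval -0.24 to 0.33, adjusted p = 0.90 by edgeR). Tap2 (ENSMUSG00000024339, mm10 chr17:34203527-34216321, plus strand) had 293, 276 and 300 CPM in the controls and 272 and 276 CPM in knockout cells (log2 fold change -0.08, 95% interval -0.37 to 0.21, adjusted p = 0.81 by edgeR). The tables are of different organisms and perturbations, and the difference between them was not tested.

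**Figure D4:**
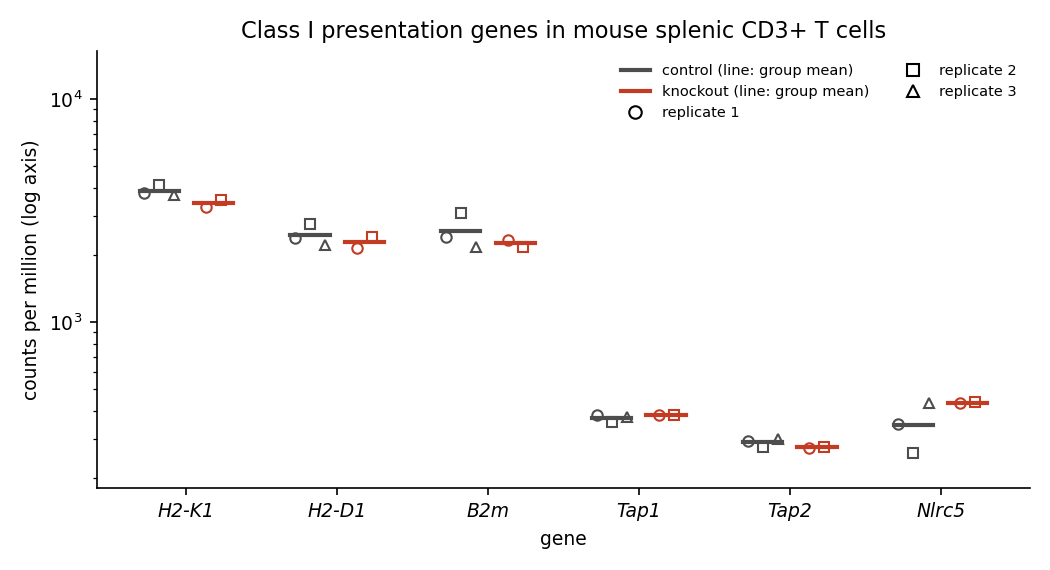
CPM of the 6 mouse class I presentation genes in 3 control and 2 knockout libraries on a log axis, with a symbol per library and a line at each group mean. Nlrc5 is at 434 and 438 CPM in the knockout against 258 to 433 CPM in the controls, and Tap1 and Tap2 lie close together in all 5 libraries.

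Per length, the mouse order in controls was B2m (6700 ± 844, SD, n = 3), H2-K1 (5414 ± 66.1), H2-D1 (2641 ± 138), Tap1 (286 ± 25.6), Tap2 (191 ± 19.0) and Nlrc5 (105 ± 31.9), and in the knockout it was the same order, at 6688 ± 436, 5389 ± 175, 2769 ± 160, 331 ± 7.26, 203 ± 1.75 and 147 ± 1.89 (SD, n = 2). No neighbours in this order overlapped in either group. On this scale Tap1 was apart between the groups, at 256 to 303 in the controls and 326 and 336 in the knockout. In CPM Tap1 was not apart, and the mean of H2-D1, higher in the knockout per length, was lower. A gene's length is the same in every library, so these differences come from the scaling of the libraries, with or without TMM factors. With merged exon lengths Tap2 came before Tap1, so the order of the transporter subunits depends on the length used. The summed level of H2-K1 and H2-D1 over that of B2m was 1.24, 1.07 and 1.32 in the controls and 1.13 and 1.32 in the knockout, and these overlapped (exact two-sided permutation test, p = 1.0, where the smallest possible p is 0.1). H2-K1 and H2-D1 share long stretches with each other and with H2-Q and H2-T genes, so reads may have been split among them. Tap1 overlaps the start of Psmb9 on the opposite strand, and whether counting used the strand is not given in the sources used here.

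**Figure D5:**
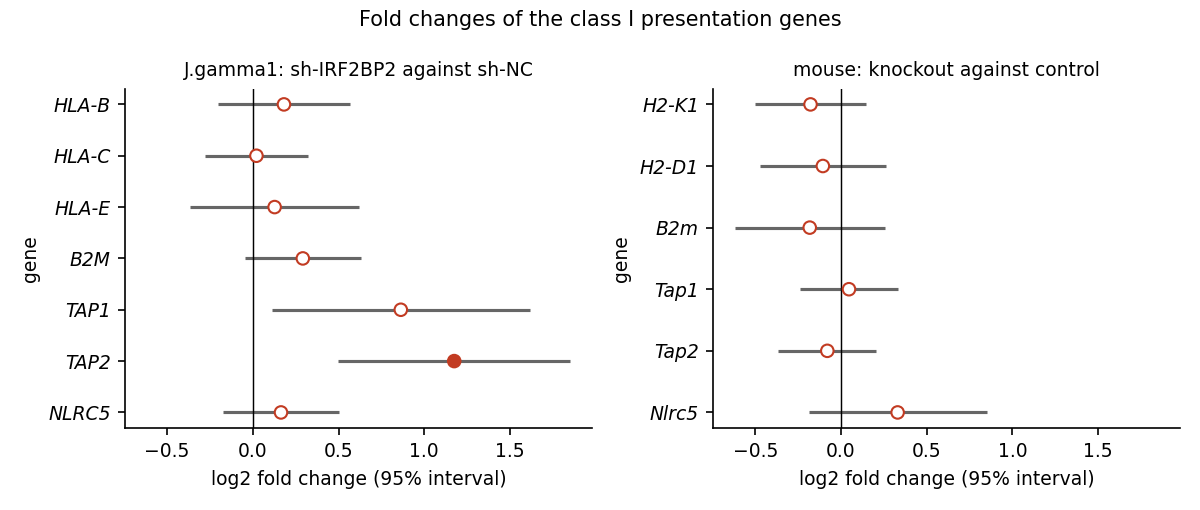
Log2 fold changes of the class I presentation genes in J.gamma1 cells (sh-IRF2BP2 against sh-NC) and in mouse CD3+ T cells (knockout against control), with bars for the 95% interval of edgeR's fit and a filled point for an adjusted p under 0.05. TAP2 at 1.17 is the filled point, and the 6 mouse intervals all cross 0.

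Of 67 tested mouse genes in the same 5 lists, 1 (1.49%) passed as higher and 0 as lower by edgeR, against 2.68% and 0.15% of all genes tested, and 15 had an unadjusted p under 0.05. DESeq2 called 2 as higher and 1 as lower, against 936 and 285 of all 15350 genes. Gbp3, a guanylate-binding protein, was at 27.6, 25.3 and 29.2 CPM in the controls and rose to 63.3 and 65.1 CPM in knockout cells, a log2 fold change of 1.23 (adjusted p = 0.010 by edgeR). That call was lost without control replicate 1 and without either knockout library (adjusted p = 0.063, 0.078 and 0.12 by edgeR, with a range of 2.8e-13 to 0.12 over the alternatives). H2-T23, the mouse heavy chain closest in role to HLA-E, had 460, 486 and 375 CPM in the controls and 370 and 357 CPM in knockout cells (log2 fold change -0.27, adjusted p = 0.46 by edgeR). The nearest profiles to the mean of the mouse members were those of Tollip, Zfp143 and Fbl, at root mean square distances of 0.012, 0.015 and 0.016 on the log2 scale over 5 libraries and 9094 candidates.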

How the data were processed

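The authors sequenced poly(A) libraries as 150 bp read pairs and aligned them with HISAT2 2.2.0, per the labels to hg38 (J.gamma1) and mm10 (mouse), and estimated abundance with StringTie. They deposited raw whole-number counts, 1 column for each library and 1 row for each Ensembl gene. How coverage became counts and whether the strand was used are not given in the sources used here.

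Rows were restricted to identifiers of GENCODE 44 or M21 (98.0% and 99.8% of the counts). In R 4.3.3, edgeR 4.0.16 removed low counts (filterByExpr), set TMM factors and fitted each table by quasi-likelihood (glmQLFit, glmQLFTest) on condition alone. A gene passed at a Benjamini-Hochberg adjusted p under 0.05, and intervals use the fit's standard error and degrees of freedom. No replicate pair agreed within sampling noise (lowest chi-square per gene 18.2), and each library was treated as a replicate of its own. That value does not show whether libraries came from separate cultures or animals. Named genes were every member, IRF2BP2, those of the fixed lists that passed (up to 3 with the largest rise and 3 with the largest fall where more than 6 passed), a few fixed regulators, and the 3 nearest profiles. Members and lists were chosen with earlier results of these data known. The counts cover the lists whole, and some of their genes are not reported here by name.

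Each result was repeated with DESeq2 1.42.0, with upper-quartile or RLE scaling, with 2 other filters, over all rows, after summing rows by symbol, at fold thresholds, with a replicate block, with single libraries left out, and with merged exon lengths. The fits were first tested on simulated data that held 200 genes of known change. The simulation gave every gene the same spread, so it does not show how the fits treat genes of differing spread. Promoters and tables were handled in Python 3.11.15. Chromatin data were not used here.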

Additional observations from a re-analysis of the deposited data

How the results depend on the processing

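Every alternative kept the fold changes of TAP1, TAP2, B2M and NLRC5 above 0. Directions turned for HLA-C with upper-quartile scaling (log2 fold change -0.034) and with the filter of 1 count in any library (-0.010), and among the fits that left out a library for HLA-B (-0.036 to 0.43), HLA-C (-0.11 to 0.15), HLA-E (-0.088 to 0.29), PSMB8 (-0.012 to 0.50) and mouse H2-D1 (-0.21 to 0.0018). Of the J.gamma1 members, 0 passed with the filter of 1 count in any library and with all rows, and 0 to 3 passed when 1 library was left out, where the lone library is assumed to vary like the other group. DESeq2 called 1.

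In the 5 J.gamma1 lists, 13 genes passed as higher and 4 as lower. The filter of 1 count in any library left 5 and 2, a log2 fold threshold of 1 left 5 and 1, and leaving out a library gave 6 to 17 and 1 to 4. In the mouse lists, DESeq2 called 2 higher and 1 lower, and leaving out a library gave 0 to 1 higher. The cause was not tested.

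The replicate numbers are shared by label only. Deviations of libraries with the same number correlated at 0.23 in J.gamma1 cells, and at 0.15 and -0.16 in the mouse. With 2 libraries in a group the deviations are mirror images, so these values cannot decide whether libraries were paired. The main fit took them as unpaired. With the replicate block, 22 J.gamma1 list genes passed as higher (over all genes 1884 as higher and 1663 as lower, from 923 and 841), 2 mouse list genes as higher and 1 as lower, and the members called stayed at 1 and 0.

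Merged exon lengths moved the ratio of heavy chains to B2M from 0.356 to 0.648 in sh-NC and from 1.21 to 0.773 in mouse controls. TAP1 and TAP2 rested on 90 to 469 counts per J.gamma1 library.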
